A study of Mus musculus with 9 samples.

Results

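Myeloid C-type lectins are carbohydrate-binding receptors of macrophages, monocytes, neutrophils and dendritic cells, and 8 of their genes were described in mouse liver: Clec4a1, Clec4a2, Clec4a3, Clec4n, Clec4d, Clec4e, Clec7a and Clec12a. They were taken by name from the 16755 genes of the authors' table and were chosen by measured values, since they were put together with the group means of these livers known. All levels and ratios of the 8 genes are therefore a description. Liver of male C57BL/6 mice was sequenced in 3 groups of 3 mice each, all with Scd2 floxed on both alleles (Scd2f/f). One group was untreated. The other groups were injected with the carcinogen diethyl nitrosamine (DEN, 10 mg/kg) when 2 weeks old. From 6 weeks they were fed a Western alcohol diet (WAD), a liquid feed with lard, cholesterol and ethanol. One of these was Scd2f/f and the other Scd2f/f;CC, in which Cre under the Col1a1 promoter deletes Scd2, a stearoyl-CoA desaturase, in collagen-expressing cells. In this model the study places Col1a1 expression in hepatic stellate cells (HSC) and portal fibroblasts. Which cells the lectin reads came from was not measured in this whole tissue. The labels give 4 months of diet and call the tissue liver, whereas the study's methods give a longer diet and its results place the tissue next to tumors. There is no untreated Scd2f/f;CC group, so an effect of the genotype without DEN + WAD cannot be told apart from one that needs the regimen.

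The receptors differ in what they signal. Clec7a (Dectin-1), the receptor for fungal beta-glucan, signals to the kinase Syk through a motif in its own tail. Clec4n (Dectin-2), which binds mannans, and Clec4e (Mincle), which binds mycobacterial glycolipids and the nuclear protein SAP130 released by dying cells, signal through the adaptor chain encoded by Fcer1g. Clec4d (MCL) pairs with Mincle. Downstream of Syk, the Card9, Bcl10 and Malt1 complex drives cytokine genes. Clec12a (MICL), a receptor for uric acid crystals, and Clec4a2 (Dcir1) carry an inhibitory motif that recruits the phosphatases encoded by Ptpn6 and Ptpn11. Clec4a1 (Dcir4) and Clec4a3 (Dcir3) are close relatives of Clec4a2 that lack this motif. In liver, such receptors are known from Kupffer cells, the resident macrophages, and from monocyte-derived cells that enter injured tissue.

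All 8 genes lie on chromosome 6, in 2 places. In GENCODE M21 on GRCm38 (mm10), Clec4a1 spans chr6:122921848-122934619, Clec4a3 chr6:122952515-122969875, Clec4a2 chr6:123106428-123143999, Clec4n chr6:123229843-123247021 and Clec4d chr6:123262111-123275265, all on the plus strand. Clec4e follows at chr6:123281789-123289870 on the minus strand, which closes a stretch of 368 kb in which the table has no other gene. After a gap of 6.05 Mb come Clec12a at chr6:129342691-129365303 on the plus strand and Clec7a at chr6:129461591-129472779 on the minus strand. The annotation of the table and GENCODE M21 both class Clec7a as a polymorphic pseudogene and the other 7 genes as protein coding.

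Because the 8 genes share 1 order of group means, the sequences before their starts are shown. RefSeq promoter windows, 250 bases before to 50 bases after a start on GRCm38.p6, were found for 7 of the 8 genes. They were searched on both strands for GAGGAA, the core bound by PU.1, a transcription factor that myeloid cells need. The 250 bases before the start of 4 genes are given 5′ to 3′ on the strand of the gene, with GAGGAA or its reverse complement TTCCTC in capitals. They lie at chr6:129472780-129473029 (minus strand) for Clec7a, chr6:123289872-123290121 (minus) for Clec4e, chr6:129349994-129350243 (plus) for Clec12a and chr6:123122440-123122689 (plus) for Clec4a2. The RefSeq starts of Clec12a and Clec4a2 lie inside the GENCODE genes, downstream of their first base.
Clec7a: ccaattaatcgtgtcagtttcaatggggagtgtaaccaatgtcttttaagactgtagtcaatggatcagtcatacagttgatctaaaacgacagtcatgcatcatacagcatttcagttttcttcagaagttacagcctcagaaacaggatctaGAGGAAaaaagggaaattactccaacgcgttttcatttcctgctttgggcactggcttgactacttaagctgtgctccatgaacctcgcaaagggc
Clec4e: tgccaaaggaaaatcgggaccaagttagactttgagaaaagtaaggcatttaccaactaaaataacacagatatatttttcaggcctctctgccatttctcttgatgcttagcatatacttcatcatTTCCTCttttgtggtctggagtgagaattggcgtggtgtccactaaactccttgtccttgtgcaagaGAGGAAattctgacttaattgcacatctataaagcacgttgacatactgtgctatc
Clec12a: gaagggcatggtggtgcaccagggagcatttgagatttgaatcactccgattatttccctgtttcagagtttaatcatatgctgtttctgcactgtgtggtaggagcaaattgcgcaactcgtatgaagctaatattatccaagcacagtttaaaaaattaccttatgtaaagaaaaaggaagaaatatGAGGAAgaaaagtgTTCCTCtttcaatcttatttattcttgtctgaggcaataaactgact
Clec4a2: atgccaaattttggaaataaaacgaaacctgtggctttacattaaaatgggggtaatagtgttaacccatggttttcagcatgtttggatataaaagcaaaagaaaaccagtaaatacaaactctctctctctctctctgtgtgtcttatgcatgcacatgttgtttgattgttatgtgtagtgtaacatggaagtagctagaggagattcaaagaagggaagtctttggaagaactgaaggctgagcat

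The core began at -96 in Clec7a, at -123 and -56 in Clec4e and at -61 and -47 in Clec12a, with -1 the base before the start. Over both sides of the start, it stood in windows of 6 of the 7 genes and was not found in that of Clec4a2. Counted by window, it stood in 7 of the 9 windows of these genes, and Clec4a3 also had a window without it. It is a common word, present in 28.3% of all 32851 mouse windows. A gene with more windows has more chances of a match, so only the count by window can be set beside this share. The AP-1 motif TGANTCA was found in Clec12a and Clec4a2 and in 7.81% of all windows, and the C/EBP motif TTGCNNAA in Clec12a and Clec4e and in 10.8% of all. No match of one motif overlapped a match of another in these genes. A match is a word in the sequence and was not tested as a binding site.

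The table gives for each gene and group the authors' least-squares mean of normalized read counts to 3 significant digits, and no value of a single mouse was analysed here. The spread between mice was therefore not computed and no test was run, the authors' own test columns were not used, and a ratio of at least 2 is used only as a mark of size. The depth of each library is unknown. In untreated liver, group means ran from 0.04 to 76300 over all genes, and the 75th percentile was 15.5, 15.5 and 15.4 in the untreated Scd2f/f, treated Scd2f/f and treated Scd2f/f;CC groups. Scd2, the deleted gene, had means of 2.46, 6.47 and 1.87 in that order. In whole tissue, more cells of a type and more RNA per cell cannot be told apart.

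Every lectin was lowest in untreated liver, highest in treated Scd2f/f liver and in between in treated Scd2f/f;CC liver. Treated Scd2f/f liver exceeded untreated liver 3.26- to 15.9-fold, with a median of 5.78-fold. All 8 genes passed 2-fold, as did 9.37% of all genes in this direction. Since the genes were put together on this contrast, nothing is read from the count. Relative to the median of 13 general macrophage markers, Clec4a1, Clec4a2 and Clec4d were lower instead of higher. For Clec4a1 this difference was slight, at -0.064 on the log2 scale, with no spread between mice known. Treated Scd2f/f;CC liver had 29.3% to 52.5% less of each lectin than treated Scd2f/f liver, with a median ratio of 0.623, and was still 1.81- to 9.67-fold above untreated liver. Both comparisons with treated Scd2f/f liver share its mean, so a high mean there would raise one ratio and lower the other.

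**Figure D1:**
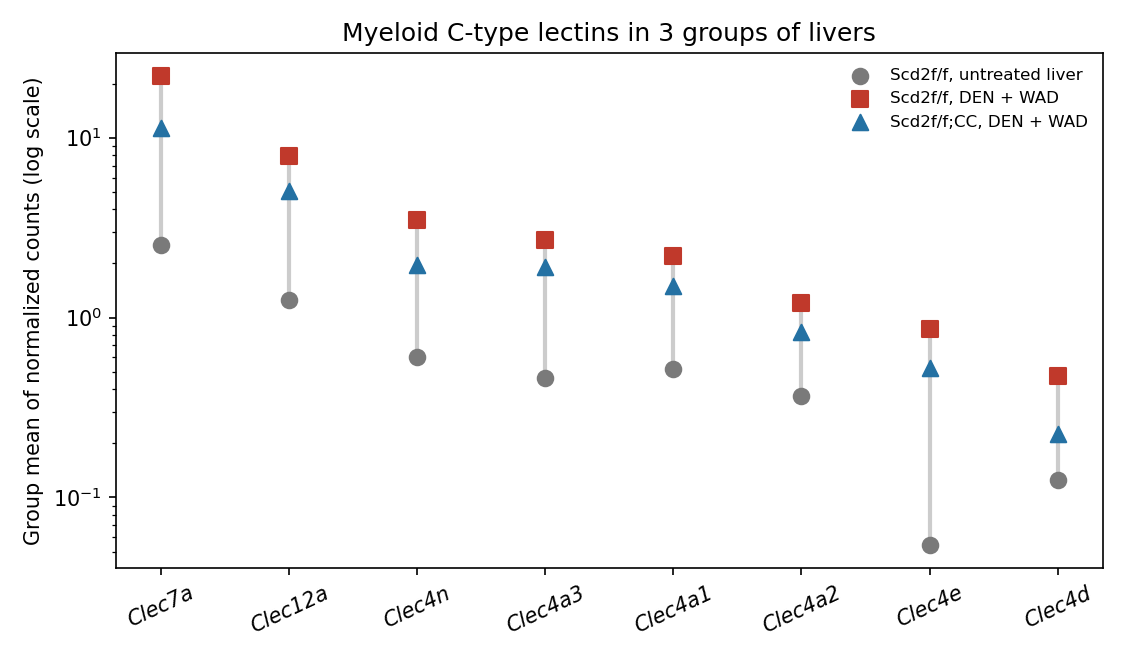
Authors' group mean of normalized counts (log axis) for each of the 8 lectins in untreated Scd2f/f (grey circles), treated Scd2f/f (red squares) and treated Scd2f/f;CC (blue triangles) liver, with 3 mice behind each mean and no error available. In each gene the blue triangle lies between the grey circle and the red square, for Clec7a at 11.3 between 2.54 and 21.9. Relative to macrophage markers, Clec4a1, Clec4a2 and Clec4d were lower in both treated groups than in untreated liver. For Clec4a1 this was slight, at -0.064 in treated Scd2f/f and -0.11 in treated Scd2f/f;CC on the log2 scale.

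The activating receptors come first, led by Clec7a, whose level per kb of annotated exon was the highest of the 8 in each group. The authors' mean for Clec7a was 2.54 in untreated Scd2f/f, 21.9 in treated Scd2f/f and 11.3 in treated Scd2f/f;CC liver. This is an 8.62-fold difference with treatment and a ratio of 0.516 between the genotypes. Treated Scd2f/f;CC liver stood at 45.2% of the way from the untreated to the treated Scd2f/f mean. By the size of its ratio of treated to untreated Scd2f/f liver, Clec7a was 53rd of the 16755 genes.

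Clec4n had means of 0.605, 3.47 and 1.95 in the same order. Treated Scd2f/f liver was 5.74-fold above untreated liver, and Scd2f/f;CC liver was 43.8% below it, at 46.9% of the way. Clec4n thus followed Clec7a closely in the comparison of genotypes, with a smaller ratio for treatment.

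Clec4e, the Mincle gene, had means of 0.0544, 0.864 and 0.526. Its 15.9-fold ratio of treated to untreated Scd2f/f liver was the largest of the 8 and 16th of all genes. The untreated mean was near the floor of the table, since 1.17% of genes had a lower one and 16 genes shared the value 0.0544, so this fold is poorly set. With 0.1 added to each mean, its log2 ratio was 2.64 in place of 3.99, and that of Clec7a, at 3.06, was then the largest of the 8. The ratio of Scd2f/f;CC to Scd2f/f treated liver, 0.609, rests on higher means.

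Clec4d, the partner of Mincle, had low means of 0.125, 0.476 and 0.226. Treated Scd2f/f liver was 3.81-fold above untreated liver. Clec4d had the lowest ratio between the genotypes, 0.475, and its treated Scd2f/f;CC mean was 1.81-fold above untreated liver, at 28.8% of the way. It was the 1 lectin of 8 that was at least 2-fold lower in Scd2f/f;CC, as were 4.07% of all genes, and with 0.1 added to each mean it no longer was. At a limit of 1.5-fold, 5 of 8 were lower (Clec7a, Clec4n, Clec4d, Clec4e and Clec12a), as were 9.8% of all genes.

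Of the receptors with an inhibitory motif, Clec12a had means of 1.25, 7.94 and 5.07. It was 6.35-fold higher in treated than in untreated Scd2f/f liver and 36.1% lower in Scd2f/f;CC than in Scd2f/f treated liver. Clec4a2 had means of 0.368, 1.2 and 0.833, with the smallest ratio of the 8 for treatment, 3.26-fold, and was 30.6% lower in Scd2f/f;CC. Reads of Clec4a2 may be split with other genes, since 6.83% of the 50-base words of its transcripts also occur in other genes, most often in Clec4a4, another Dcir gene. That share was 0.686% for Clec4n and 0.457% for Clec12a, and none of the words of the other 5 lectins was shared.

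The Dcir genes without the motif were among the lectins that differed least between the genotypes. Clec4a1 had means of 0.519, 2.21 and 1.49, a 4.26-fold difference with treatment and a ratio of 0.674 between the genotypes. Clec4a3 had means of 0.464, 2.7 and 1.91, with 5.82-fold and 0.707 for the same ratios, the latter the closest to 1 of the 8. Treated Scd2f/f;CC liver kept more of the Clec4a3 difference than of any other lectin, at 64.7% of the way from the untreated to the treated Scd2f/f mean.

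Set out by role, the ratios of treated Scd2f/f;CC to treated Scd2f/f liver ran from 0.475 to 0.609 in the 4 activating receptors and from 0.639 to 0.707 in the 4 others, but this order did not hold with a pseudocount. With 0.1 added to each mean, the log2 ratio was -0.64 for Clec12a and -0.62 for Clec4e. With 1 added, Clec4d at -0.27 and Clec4e at -0.29 were lowered less than Clec12a at -0.56, Clec4a1 at -0.37 and Clec4a3 at -0.35. The grouping was made with the values known and has no test. The ratios of treated to untreated Scd2f/f liver overlapped between the roles, from 3.81- to 15.9-fold in the activating and from 3.26- to 6.35-fold in the other receptors. Against untreated liver, 7 of 8 lectins were at least 2-fold higher in treated Scd2f/f;CC liver, all but Clec4d, as were 6.41% of all genes. Relative to the macrophage markers, Clec4a1, Clec4a2 and Clec4d were lower here too, Clec4a1 only slightly, at -0.11 on the log2 scale.

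Levels were compared between the lectins per length, taken as the union of all annotated exons of a gene. This union ran from 1327 bases for Clec4a3 to 5528 for Clec12a. It can exceed the length of the transcripts present, which was not determined, so the order depends on this choice. Per kb of annotated exon, the mean of Clec7a in treated Scd2f/f liver was 8.30, that of Clec4n 2.44 and that of Clec4a3 2.03. Clec12a and Clec4a1 followed at 1.44 and 1.42, Clec4a2 at 0.410, Clec4d at 0.298 and Clec4e at 0.174. Clec7a was first, Clec4a2 sixth, Clec4d seventh and Clec4e last in each group, and in untreated liver Clec7a stood at 0.963 per kb and Clec4e at 0.0110. Clec4n and Clec4a3 were next after Clec7a in each group and changed places in Scd2f/f;CC, at 1.37 and 1.44 per kb. Without a spread between mice, it cannot be said which neighbours in this order differ.

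The genes between the lectins on chromosome 6 were mostly unlike them. The table holds 81 other genes from Clec4a1 to Clec7a, with a median log2 ratio of treated to untreated Scd2f/f liver of 0.27, against 2.53 for the lectins. Of these, 9 were at least 2-fold higher (Clstn3, Ptpn6, Cdca3, Cd9, Ntf3, Rad51ap1, Foxm1, Klrb1b and Clec2i), 2 were at least 2-fold lower (Gm23547 and Scarna10), and Ntf3 and Foxm1 were at least 2-fold lower in Scd2f/f;CC than in Scd2f/f treated liver. The 3 lectin genes that lie between Clec12a and Clec7a stayed under 2-fold. Clec1b, a receptor of platelets and of Kupffer and sinusoidal cells, had means of 3.79, 6.87 and 6.19 in untreated Scd2f/f, treated Scd2f/f and treated Scd2f/f;CC liver. Clec9a, a dendritic cell receptor for dead cells, had means of 1.03, 1.48 and 1.15, and Clec1a, an endothelial lectin, of 2.13, 2.33 and 2.1.

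**Figure D2:**
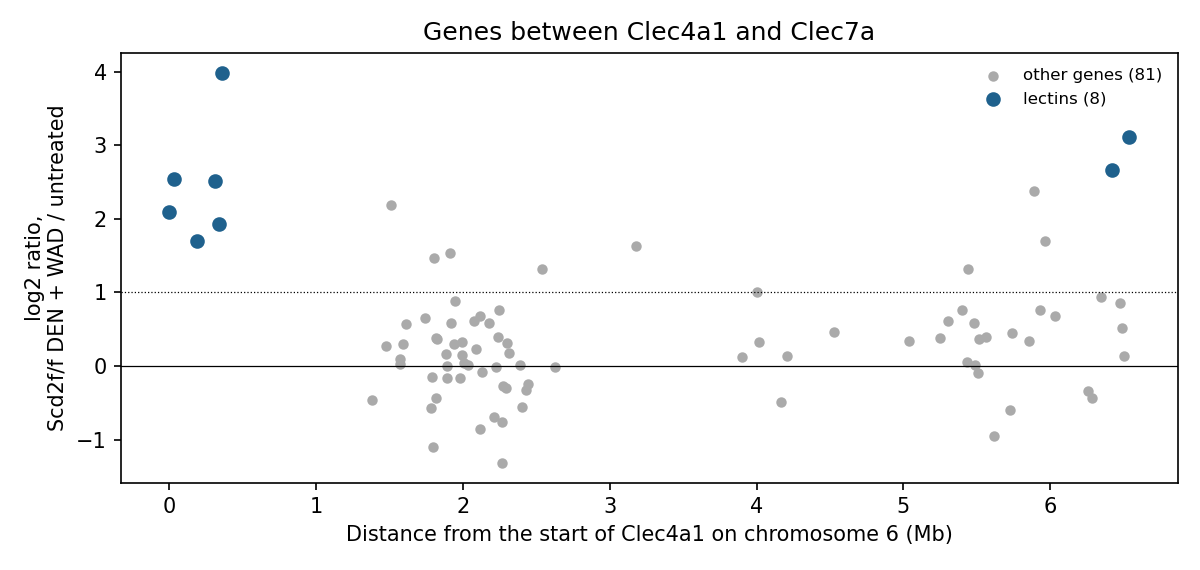
Log2 ratio of the authors' means of treated to untreated Scd2f/f liver for each gene of the table from Clec4a1 to Clec7a, against the distance of its start from that of Clec4a1 in Mb. The 8 lectins (blue) lie at both ends of the stretch, above the dotted line at 2-fold, and the median of the 81 other genes (grey) is 0.27. Relative to the macrophage markers, Clec4a1, Clec4a2 and Clec4d would fall below 0, Clec4a1 only slightly, at -0.064.

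Other C-type lectins showed a smaller difference. Of 33 listed, 20 were in the table, and their median log2 ratio of treated to untreated Scd2f/f liver was 0.56, with 6 at least 2-fold higher (Clec4f, Klrk1, Clec2i, Clec5a, Olr1 and Clec10a). Clec4f, the lectin of Kupffer cells, had means of 27.3, 71.2 and 71.7 and so was as high in treated Scd2f/f;CC as in treated Scd2f/f liver, unlike the 8 lectins. Clec5a, a myeloid receptor that signals through Tyrobp, had means of 0.0886, 0.411 and 0.153. The mannose receptor gene Mrc1 had means of 37.8, 57.5 and 55.9. Between the genotypes, the median log2 ratio of the 20 was -0.19, with 3 at least 2-fold lower in Scd2f/f;CC (Mrc2, Clec5a and Cd207).

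The genes that carry the signal of these receptors were higher in treated Scd2f/f liver as well. All 12 of the listed genes were above their untreated mean, 8 of them at least 2-fold, with a median log2 ratio of 1.57 (all genes, 0.04). The adaptor Fcer1g had means of 1.59, 7.33 and 4.7, and the kinase Syk of 1.95, 8.53 and 5.74. Plcg2, a phospholipase that Syk activates, had means of 0.877, 3.84 and 2.55. The complex below Syk differed less, with Card9 at 0.217, 0.368 and 0.294, Bcl10 at 6.58, 9.54 and 7.97 and Malt1 at 4.2, 5.86 and 5.48. On the inhibitory side, Ptpn6 had means of 5.16, 14.3 and 12.2, Ptpn11 of 33.4, 36.1 and 34.2 and the lipid phosphatase gene Inpp5d of 1.72, 5.83 and 4.19. All 12 were lower in treated Scd2f/f;CC than in treated Scd2f/f liver, none by 2-fold, with a median log2 ratio of -0.38 (all genes, 0.00) against -0.68 for the lectins.

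Genes for reported endogenous ligands did not share the pattern. Sap130, for the Mincle ligand, had means of 7.07, 8.82 and 9.28. Lgals9, for galectin-9, a ligand of Dectin-1, had means of 112, 146 and 149. Anxa1, for an annexin that Dectin-1 can bind on dying cells, had means of 2.35, 3.26 and 1.46 and was the 1 of 3 at least 2-fold lower in Scd2f/f;CC than in Scd2f/f treated liver.

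Cytokine and effector genes that myeloid receptors can induce had a larger median difference between the genotypes than the receptors, though many of their means were low. Of 14 listed, 10 were in the table, of which 9 were at least 2-fold higher in treated than in untreated Scd2f/f liver and 8 at least 2-fold lower in Scd2f/f;CC, with medians of 2.86 and -1.34 on the log2 scale. Il1rn, for the interleukin-1 receptor antagonist, had means of 0.526, 5.27 and 2.68, and the monocyte chemokine gene Ccl2 of 0.172, 1.72 and 0.715. Nos2, for inducible nitric oxide synthase, had means of 0.0515, 1.03 and 0.193, and Tnf of 0.132, 0.579 and 0.28. Il1b differed less between the genotypes, with means of 0.92, 2.45 and 1.9. Cxcl1, at 11.8, 17.5 and 5.04, lay below its untreated mean in treated Scd2f/f;CC liver. Nos2, Ptgs2, Ccl4 and Ccl3 had untreated means of 0.0515, 0.0515, 0.0656 and 0.08, near the lowest of the table, where ratios are poorly set. In treated Scd2f/f;CC liver, Ccl4, Nos2, Ptgs2, Cxcl2 and Ccl3 had means of 0.226, 0.193, 0.151, 0.18 and 0.123. The median between the genotypes thus rests largely on low means. For Il1rn, Il1b and Cxcl1, the genes with the highest means, the log2 ratios between the genotypes were -0.98, -0.37 and -1.80.

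Markers of macrophages, which are known to carry such lectins, moved with the lectins, and the part of these cells in the values was not tested. Of 13 general macrophage markers, 12 were at least 2-fold higher in treated than in untreated Scd2f/f liver, with a median log2 ratio of 2.15, and their summed means were 107, 329 and 238 in untreated Scd2f/f, treated Scd2f/f and treated Scd2f/f;CC liver. Csf1r, the receptor that macrophages need to survive, had means of 17, 60.8 and 53.5, and Spi1, which encodes PU.1, of 0.976, 5.3 and 3.76. Lyz2, for a lysozyme of myeloid cells, had means of 24.9, 107 and 63.7, and Ctss, for a lysosomal protease, of 9.84, 55.1 and 30.5. Between the treated genotypes, the ratios were 0.595 for Lyz2, 0.554 for Ctss and 0.433 for Cd14, a receptor for bacterial lipopolysaccharide, all below the median of the lectins, 0.623. The median of the lectins was 0.38 above that of these markers for treatment, with 5 lectins above it and 3 below. Between the genotypes, all 8 lectins lay below the median of the markers, -0.50, by 0.19 in their own median, and Clec4a3 by less than the rounding of the means.

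Kupffer cell markers differed less between the genotypes. Of 10 markers, 8 were at least 2-fold higher in treated than in untreated Scd2f/f liver and none was 2-fold lower in Scd2f/f;CC, with medians of 1.60 and -0.17 on the log2 scale and sums of 295, 469 and 420. Some markers with high means were not higher in treated liver and weigh on these sums. The sums thus understate the difference in the other markers. Cd5l, for a secreted Kupffer cell protein, had means of 22.9, 114 and 99, and Timd4, a receptor of resident macrophages, of 1.7, 4.81 and 5.94. Monocyte markers had medians of 1.54 and -0.22, with 6 of 8 at least 2-fold higher, and Ccr2, the receptor for Ccl2, had means of 0.564, 3.78 and 2.1. Neutrophil markers had medians of 1.75 and -0.32 over 5 genes, and dendritic cell markers of 1.31 and -0.69 over 9 genes. Of the defining neutrophil markers in the table, Ngp stood at the lowest untreated mean, 0.04. None of all 16755 genes had a mean of 0 in any group, so the lack of 0 does not show that a marker was detected.

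Markers of lipid-associated macrophages differed most of the myeloid lists between the genotypes. Their medians were 2.02 for treatment and -1.73 between the genotypes, with 6 of 8 at least 2-fold higher and 5 of 8 at least 2-fold lower. Trem2, a lipid receptor of these cells, had means of 0.253, 1.8 and 0.459, and Gpnmb, a lysosomal glycoprotein gene, of 0.0937, 8.98 and 0.638. The list was mixed, since Lpl, for lipoprotein lipase, had means of 16.3, 83.6 and 66.2, and Fabp5, for a fatty acid binding protein, was lower in treated liver, with means of 16.4, 6.19 and 8.14. The 5 genes lower in Scd2f/f;CC also include a gene of high untreated mean that was not higher in treated Scd2f/f liver. Treated Scd2f/f;CC liver stood at 13.3% of the way from the untreated to the treated Scd2f/f mean for Trem2 and at 74.1% for Lpl, and the 8 lectins lay between these, from 28.8% to 64.7%.

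**Figure D3:**
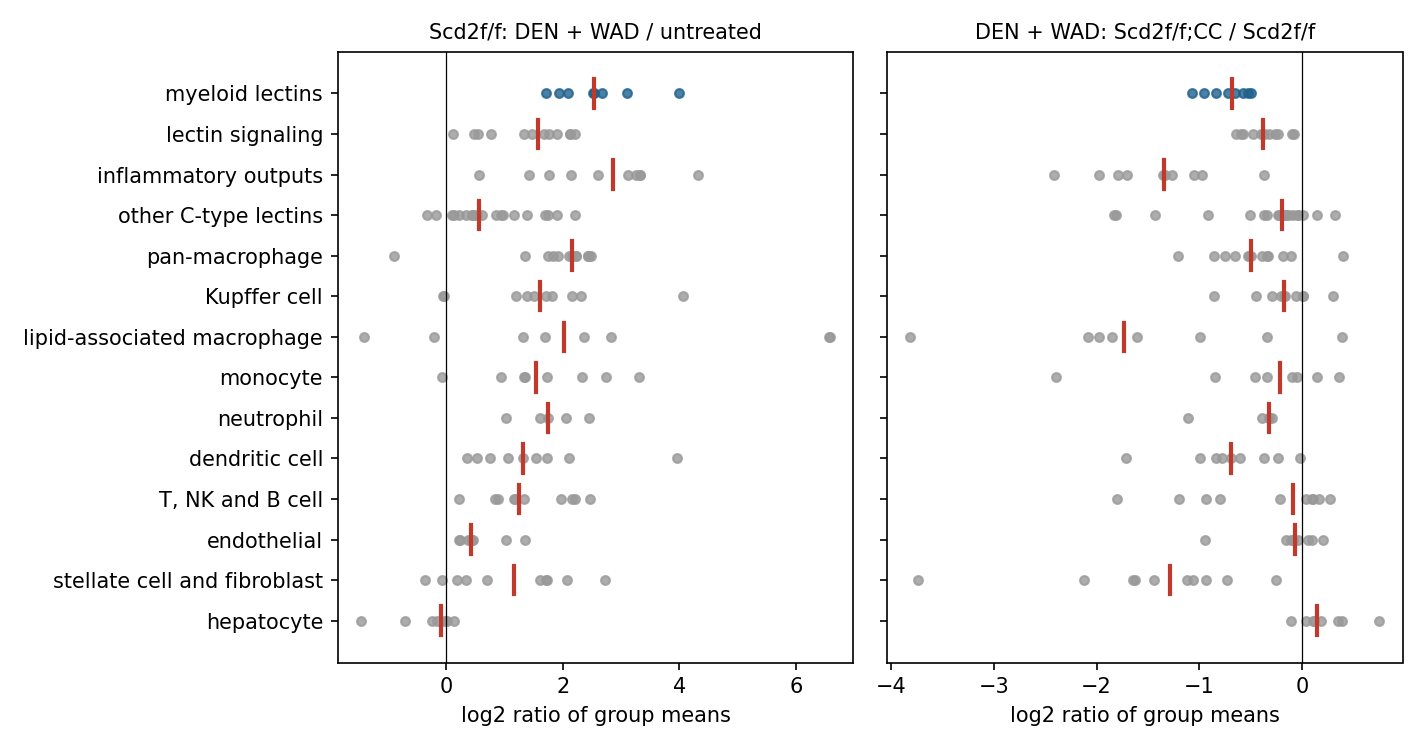
Log2 ratio of the authors' means for each gene (points) and the median (red line) of the 8 myeloid lectins (blue) and of 13 gene lists (grey), for treated against untreated Scd2f/f liver on the left and for Scd2f/f;CC against Scd2f/f treated liver on the right. The medians of the lectins are 2.53 and -0.68, those of the general macrophage markers 2.15 and -0.50, and Clec4a1, Clec4a2 and Clec4d lie below the macrophage median on the left.

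The genes whose pair of ratios lay nearest to the median of the lectins were Plek, Cd36, Tgtp1, Itgb2 and Mki67, by Euclidean distance over 11779 other genes with a mean of at least 1. Plek, for the phagocyte and platelet protein pleckstrin, had means of 1.9, 11 and 6.91, at a distance of 0.0112 on the log2 scale. Itgb2, for a leukocyte integrin chain, had means of 2.36, 14.1 and 9.29. Cd36, a fatty acid and lipoprotein receptor gene, had means of 23.7, 138 and 88.5, and Mki67, a marker of dividing cells, of 1.41, 8.32 and 4.86. Tgtp1, an interferon-induced GTPase gene, had means of 1.47, 8.48 and 5.64. The likeness rests on 2 ratios of 3 means.

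**Figure D4:**
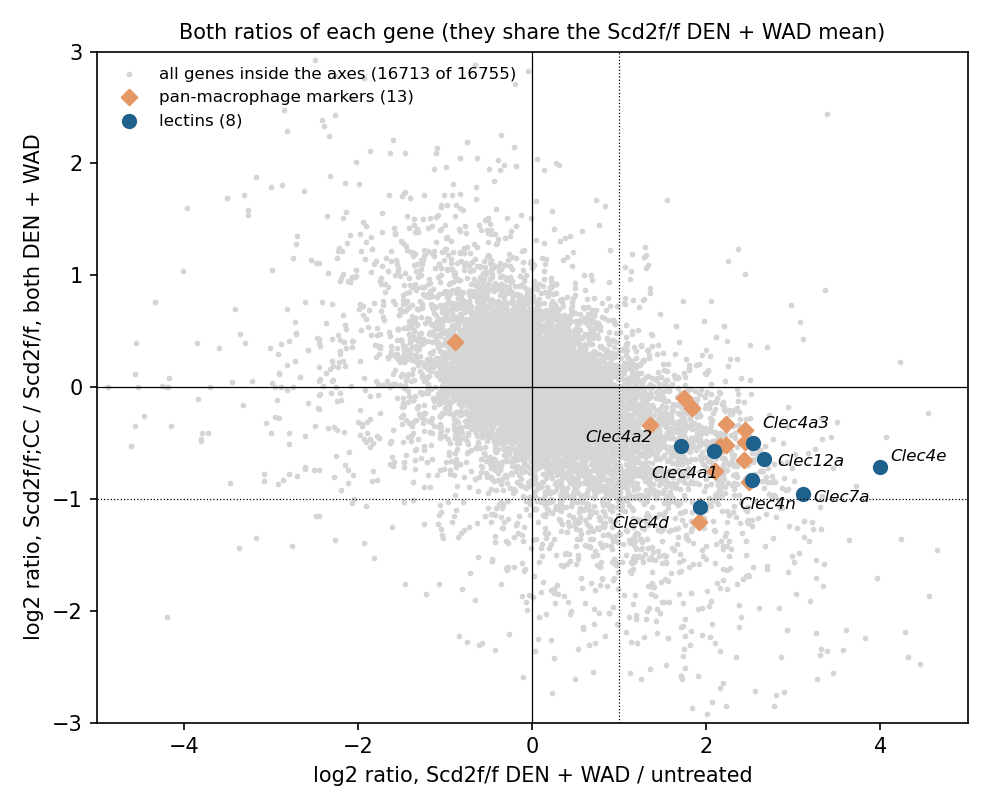
Log2 ratio of treated to untreated Scd2f/f liver (x axis) and of Scd2f/f;CC to Scd2f/f treated liver (y axis) for 16713 of 16755 genes (grey), 13 general macrophage markers (orange) and the 8 lectins (blue), with dotted lines at 2-fold. All lectins lie right of the dotted line and below 0, Clec4d alone passes the lower line, and Clec4a1, Clec4a2 and Clec4d lie left of the macrophage median of 2.15. The mean of treated Scd2f/f liver enters both axes.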

How the data were processed

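Polyadenylated RNA of liver was prepared with TruSeq v2 and sequenced on an Illumina NextSeq by the authors. Their processing notes name STAR 2.6.1 and Partek 6 on mm10. They counted reads per Gencode M3 gene by Partek's E/M method, scaled to the upper quartile. The deposited table gives each group's signal, a least-squares mean of normalized counts, for 16755 genes, and 0 columns of single samples. It also holds the authors' p-value, FDR, ratio and fold change for 2 comparisons, which were not used.

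Ratios of means were taken in log2 without a pseudocount, with no filter. The planned count tests were to be run only on values of single samples and were not run. The 8 genes and the 15 lists were chosen with earlier results of these data known. The genes named were drawn from the lectins, Scd2, the genes between the lectins on chromosome 6, and the 5 genes nearest the lectins' median. From the lists came the genes highest in mean or ratio, or any gene of lists of up to 12 genes. Not every gene that this rule admits is named. Names outside this rule were chosen after their values were seen. Exon lengths and shared words of 50 bases came from GENCODE M21, and promoters from RefSeq. Stop positions in the deposited table lie 1 base past those of GENCODE M21. The steps were tested on simulated data. One marker gene is not reported by name here. Alternatives were pseudocounts of 0.1 and 1, centring on genes with a mean of at least 1 or on the macrophage markers, filters on the mean of 0.3 and 1, and limits of 1.5- and 3-fold. Python 3.11.15, NumPy 2.4.6, pandas 2.3.3 and Matplotlib 3.10.9 were used.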

Additional observations from a re-analysis of the deposited data

How the results depend on the processing

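Each lectin tested kept its direction in all 3 comparisons under each pseudocount, filter and fold limit and under centring on genes with a mean of at least 1. Centring on the general macrophage markers asks instead how the lectins differ from those markers. For treated against untreated Scd2f/f liver, it turned Clec4a1 to -0.064, Clec4a2 to -0.45 and Clec4d to -0.23 on the log2 scale, and left 1 of 8 lectins past 2-fold, a median of 0.38 and 1 of 15 lists with a positive median. For treated Scd2f/f;CC against untreated Scd2f/f liver, it turned the same genes to -0.11, -0.46 and -0.78, with 1 lectin past 2-fold, a median of 0.22 and 0 lists positive. Between the treated genotypes it left 0 lectins past 2-fold and 5 lists with a negative median.

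For treated against untreated Scd2f/f liver, 5 lectins passed 2-fold in place of 8 with a pseudocount of 1, where the median was 1.21, and 5 of the 5 tested with a mean of at least 1. For treated Scd2f/f;CC against untreated liver, a pseudocount of 1 left 2 of 8 and a median of 0.80. Between the treated genotypes, the count of 1 lectin at least 2-fold lower became 0 with a pseudocount of 0.1 or 1 and at 3-fold, and 5 at 1.5-fold. Either filter on the mean took out Clec4d, the lectin counted, so the count of 0 there does not test its ratio. A pseudocount shrinks the ratios of low genes, and Clec4d has a mean of 0.276 over the groups.

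No paired analysis was possible because the columns are group means and carry no replicate numbers. Leaving out each replicate, DESeq2 and the block were not run for the same reason. Low means limit Clec4e and Clec4d most, and depth is unknown.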

Other observations

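Markers of HSC and fibroblasts, the cells in which Cre is driven, had medians of 1.15 for treated against untreated Scd2f/f liver and -1.28 for Scd2f/f;CC against Scd2f/f treated liver on the log2 scale, with 7 of 10 at least 2-fold lower in Scd2f/f;CC. Col1a1, the collagen gene whose promoter drives Cre, had authors' means of 4.69, 19.6 and 4.51 in untreated Scd2f/f, treated Scd2f/f and treated Scd2f/f;CC liver. The list was mixed for treatment, with 5 of 10 at least 2-fold higher in treated Scd2f/f liver. Acta2 had means of 1.27, 1.2 and 0.388, Des of 4.25, 3.29 and 1.98, Fbln2 of 1.27, 1.45 and 0.761 and Lrat of 15, 19 and 16. Markers of cholangiocytes, the cells of bile ducts, had medians of 0.01 and -1.88, and Epcam, an adhesion molecule of these cells, had means of 1.97, 1.82 and 0.5.

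Lymphocyte markers had medians of 1.25 and -0.09. They went different ways between the genotypes, with 5 of 10 higher and 5 lower in treated Scd2f/f;CC than in treated Scd2f/f liver. Cd8a, of cytotoxic T cells, had means of 0.235, 1.05 and 0.302, and Cd3e, of T cells, of 0.226, 1.25 and 0.545. The B cell genes Cd79a, at 0.211, 0.53 and 0.569, and Ms4a1, at 0.204, 0.46 and 0.474, were about as high in both treated groups. Of the T cell genes, Cd4, at 0.442, 0.817 and 0.883, and Cd3g, at 0.0944, 0.438 and 0.377, were also close between these groups. Ratios of such low means are poorly set. Endothelial markers had medians of 0.43 and -0.06, and the hepatocyte markers, the check of the labelled tissue, -0.09 and 0.15. Alb, the albumin gene, had means of 21300, 20900 and 22700.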
